A study of Macaca mulatta with 45 samples.

Results

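The 6 genes described here act at successive steps of glucocorticoid signalling in fat: HSD11B1, NR3C1, FKBP5, TSC22D3, ZBTB16 and PDK4. They were taken by symbol, with every probe of each, and make up 16 of the 47323 probes of the array table and 6 of its 20046 gene symbols. HSD11B1, NR3C1 and ZBTB16 had 3 probes each, TSC22D3 had 5, and FKBP5 and PDK4 had 1 each. Their human symbols all occur in the rhesus RefSeq gene table.

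Fat came from 24 adult male rhesus monkeys of 7 to 13 years. All of them ate monkey chow at baseline. Then 4 animals ate a standard diet (SD) in which fat gave 13% of the energy and sucrose made up under 5% of the weight. A further 10 animals ate a high-fat, high-sucrose diet (HFS) with 42% of energy from fat and about 27% sucrose. The other 10 (Resv) ate the HFS diet and were given resveratrol, a polyphenol of grapes. Their daily dose was 80 mg during year 1 of feeding and rose to 480 mg after that. The SD and HFS animals were given placebo treats. Subcutaneous fat was measured at month 0 on 4 SD, 10 HFS and 10 Resv arrays, and at month 24 on 2, 5 and 4 arrays. Visceral fat was measured at month 24 on 2 SD, 4 HFS and 4 Resv arrays. The question that the groups pose is what diet and resveratrol did to fat, and for these genes whether the local handling of cortisol and its targets differed with diet, time or depot.

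Cortisol is the main glucocorticoid of monkeys and humans. HSD11B1, an enzyme of the endoplasmic reticulum, regenerates active cortisol from inactive cortisone inside the fat cell, using the cofactor that H6PD supplies. Cortisol binds NR3C1, the glucocorticoid receptor, which waits in the cytoplasm in a complex with HSP90 chaperones and the co-chaperone PTGES3, then moves to the nucleus and switches genes on or off. FKBP5, a co-chaperone that lowers the receptor's affinity for cortisol, is itself one of the induced genes and closes a feedback loop. TSC22D3 (also called GILZ) is an induced leucine zipper protein with anti-inflammatory action, ZBTB16 (PLZF) an induced zinc finger transcription factor, and PDK4 an induced kinase that shuts off pyruvate dehydrogenase and so spares glucose while fat is burned. PDK4 also answers to fatty acids and fasting, so its level is not a measure of cortisol alone.

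Levels are log2 intensities of human bead-array probes read with monkey RNA, normalized over all 45 arrays. A probe's brightness depends on how well the monkey transcript matches it, so levels are compared between arrays for 1 gene and never between genes. Between 14386 and 18673 probes were detected per array, where detected means a detection p under 0.05, and the number of arrays limits the precision. At month 24 it was 17767 ± 759 (SD, n = 4) in the subcutaneous Resv group against 16012 ± 272 (n = 5) in HFS, and 16163 ± 796 (n = 4) against 15173 ± 166 (n = 4) in visceral fat. The subcutaneous arrays fell into 2 sets by the number of decimals written in the table: 19 arrays (set A, with every month 24 array and 8 of month 0) and 16 of month 0 (set B). The 10 visceral arrays were treated as a group of their own because of the depot, and no label or header names a batch. They were written with 1 decimal, as was set B, while every month 24 subcutaneous array is of set A. So depot and array set cannot be told apart in any comparison of depots. Of 8 adipocyte markers, 6 to 8 were detected on every array. ADIPOQ, the adiponectin gene, was not above background on any subcutaneous array and was detected in visceral fat on 2 HFS, 2 Resv and 1 SD array.

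HSD11B1 varied widely between animals and passed the test in no comparison of diets, times or depots. At month 0 its level ran from 4.65 to 10.82 with a median of 7.67 (SD 1.72, n = 24), and it was above background on 21 of the 24 arrays. The 3 animals below background were 1 of each diet group. At month 24 the subcutaneous levels ran from 6.76 to 9.38 with a median of 8.06 (n = 11), and the visceral levels from 5.87 to 7.81 with a median of 6.88 (n = 10). All these arrays were above background. By diet, the subcutaneous values were 9.38 and 7.18 in SD, 7.65, 8.06, 6.92, 8.47 and 9.03 in HFS, and 8.70, 6.98, 8.39 and 6.76 in Resv. The visceral values were 5.87 and 6.93 in SD, 7.16, 6.56, 5.93 and 7.01 in HFS, and 7.08, 6.82, 7.81 and 6.13 in Resv. Every visceral SD and HFS value lay below the mean of the matching subcutaneous group, and the ranges overlapped in HFS and Resv.

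NR3C1, the receptor, stayed between 7.50 and 8.63 at month 0 (median 8.10, SD 0.30, n = 24). At month 24 its subcutaneous levels were 8.51 and 7.82 in SD, 8.28, 8.18, 7.82, 7.79 and 8.13 in HFS, and 7.78, 8.29, 8.01 and 8.46 in Resv. In visceral fat they were 7.36 and 7.92 in SD, 7.88, 8.15, 7.31 and 7.82 in HFS, and 7.65, 6.68, 6.15 and 7.26 in Resv. The subcutaneous groups lay on top of each other, and the lowest 3 of the 10 visceral values, 6.15, 6.68 and 7.26, were of Resv animals.

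FKBP5, the feedback co-chaperone, was the one member whose depots did not overlap over all arrays of month 24. Its visceral levels were 7.72 and 8.40 in SD, 7.69, 7.98, 8.15 and 8.21 in HFS, and 8.36, 8.05, 7.89 and 7.80 in Resv. The subcutaneous levels at month 24 were 9.14 and 8.60 in SD, 9.06, 8.69, 8.81, 8.87 and 9.0 in HFS, and 9.43, 10.04, 9.84 and 9.26 in Resv. No visceral array reached the lowest subcutaneous array of month 24, and every subcutaneous Resv array was above every SD and HFS array. By diet, 21.9% to 41.3% of all genes did not overlap between depots, and the share over all diets together was not counted. At month 0 the 24 FKBP5 levels ran from 8.12 to 10.47 with a median of 8.97.

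Of the induced targets, TSC22D3 had month 24 levels of 12.15 and 12.27 in subcutaneous SD, 11.97, 11.86, 11.90, 12.20 and 11.72 in HFS, and 12.10, 12.35, 11.92 and 12.40 in Resv. Its visceral levels were 11.53 and 12.29 in SD, 12.06, 11.69, 11.73 and 12.17 in HFS, and 12.42, 11.28, 10.64 and 11.32 in Resv. In visceral Resv 1 array was the highest of the 10 and the other 3 were the lowest. ZBTB16 overlapped between all groups: it ran from 6.98 to 11.03 at month 0 (median 8.82, n = 24), from 7.30 to 9.74 in subcutaneous fat at month 24 (median 8.21, n = 11) and from 6.81 to 9.29 in visceral fat (median 8.04, n = 10). PDK4 had subcutaneous levels of 9.42 and 8.20 in SD, 8.36, 8.37, 7.93, 8.86 and 8.99 in HFS, and 9.78, 10.43, 8.50 and 9.63 in Resv. Its visceral levels were 7.61 and 8.35 in SD, 7.65, 8.62, 8.26 and 7.35 in HFS, and 8.86, 7.93, 7.32 and 7.53 in Resv. The 3 highest PDK4 values of month 24 were subcutaneous Resv arrays, and the fourth Resv array lay among the HFS arrays.

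**Figure D1:**
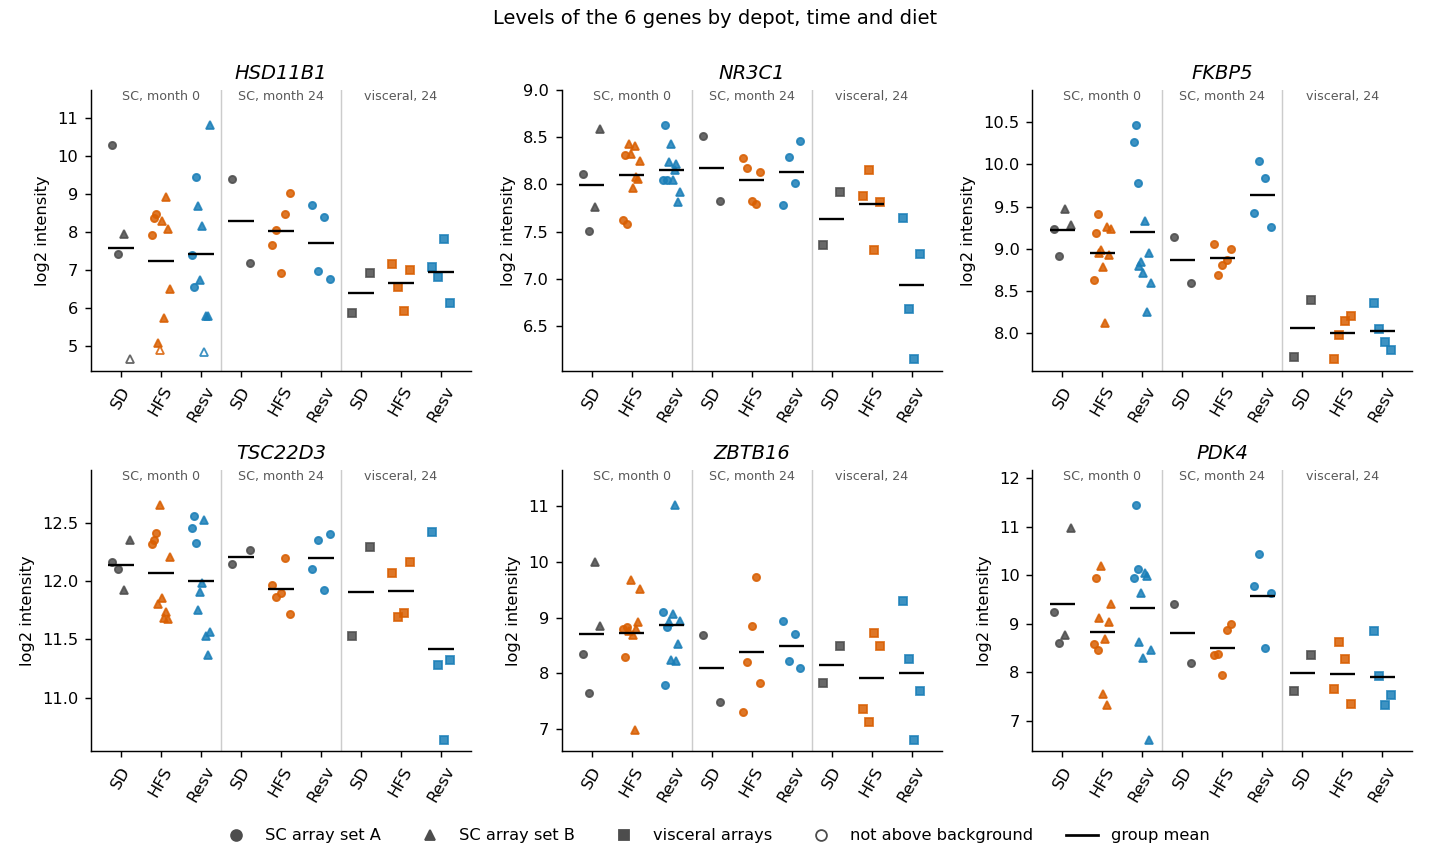
Log2 intensity of each gene (vertical axis, 1 panel a gene) on every array, by diet within month 0 subcutaneous (SC), month 24 subcutaneous and month 24 visceral fat; circles are array set A, triangles set B, squares visceral arrays, open symbols arrays not above background, bars group means. HSD11B1 spans 4.65 to 10.82 at month 0, and no visceral FKBP5 value exceeds 8.40 while the lowest subcutaneous one at month 24 is 8.60.

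FKBP5, NR3C1, TSC22D3 and PDK4 were lower in visceral than in subcutaneous fat of Resv animals, FKBP5 was also lower in HFS, and no member passed in SD. In Resv, 4 of the 6 members passed, all lower, beside 35.8% of all genes passing and 15.8% passing lower. The count was 2 with median scaling, with the deposited scores and with the number of detected probes in the fit, and 2 to 4 as each array was left out. In HFS 1 of 6 passed, lower, beside 18.7% and 7.52% of genes, and in SD 0 of 6 beside 2.39% and 0.674%, with 0 of the 6 at an unadjusted p under 0.05 beside 15.8% of genes. SD had 2 arrays a depot. Passing means an adjusted p under 0.05, from limma's moderated test with Benjamini-Hochberg adjustment over all genes of the comparison.

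In HFS the visceral FKBP5 level differed from the subcutaneous one by -0.88 ± 0.30 (standard error) on the log2 scale, 1.84-fold lower, with an adjusted p of 0.0349 in limma's test. In Resv the difference was -1.62 ± 0.32, or 3.07-fold, with an adjusted p of 0.000111. In SD it was -0.80 ± 0.45 with an adjusted p of 0.386. The visceral and subcutaneous FKBP5 values did not overlap in any of the 3 diets, where 41.3% of genes did not overlap in SD, 21.9% in HFS and 34.9% in Resv. In HFS the call was lost when any of 5 of the 9 arrays was left out (-0.95 to -0.78). In Resv FKBP5 passed in each of 16 alternatives. On the log2 scale these ran from -1.74 to -1.40, and the deposited scores gave -0.98 in units of the score. Fewer cells that express a gene and less of its RNA per cell cannot be told apart in these samples of whole tissue.

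NR3C1 was lower in visceral Resv fat by 2.3-fold, at -1.2 ± 0.26 on the log2 scale (adjusted p = 0.000307, limma), and its 4 visceral values lay below all 4 subcutaneous ones. In HFS the difference was -0.25 ± 0.24 (adjusted p = 0.517) and in SD -0.53 ± 0.36 (adjusted p = 0.499). A second NR3C1 probe, ILMN_1668525, was above background on 38 of the 45 arrays, but on 1 of 4 visceral HFS arrays and 3 of 4 visceral Resv arrays. It passed lower in visceral HFS fat (-0.95 ± 0.24, adjusted p = 0.00478 over all probes tested, limma), a value set against a group mostly not above background (mean 4.86), and stood at -0.32 ± 0.26 in Resv (adjusted p = 0.375).

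TSC22D3 differed by -0.78 ± 0.27 in Resv (adjusted p = 0.02, limma), with 3 of 4 visceral arrays below the subcutaneous mean and overlapping groups. Leaving out 1 array moved it between -1.11 and -0.52 and lost the call for 4 of the 8 arrays, and 2 other probes gave 0.16 ± 0.21 and -0.30 ± 0.29. One of these, ILMN_1781356, passed lower in HFS (adjusted p = 0.0212, limma) but was not above background on any visceral HFS array (means 4.79 visceral and 5.42 subcutaneous), so its difference is a bound. It was at least 1.3-fold lower, against a floor that is, for each array, the higher of the lowest detected signal and the probe's own. PDK4 differed by -1.68 ± 0.65 or 3.19-fold (adjusted p = 0.0392, limma), with all 4 visceral arrays below the subcutaneous mean and overlapping groups. Its call was lost for 6 of the 8 arrays left out in turn, over which the difference ran from -2.04 to -1.39. HSD11B1 was at -0.75 ± 0.99 in Resv, -1.36 ± 0.94 in HFS and -1.88 ± 1.4 in SD, and none of these passed (adjusted p of 0.6, 0.338 and 0.544, limma). Its 95% intervals reached from -2.74 to 1.25 in Resv and from -3.25 to 0.53 in HFS. ZBTB16 was at -0.48 ± 0.56, -0.46 ± 0.53 and 0.07 ± 0.79.

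The resveratrol effect on the depot difference (visceral minus subcutaneous, Resv minus HFS) passed for 0 of the 6 members, beside 2.7% of all genes, and 2 had an unadjusted p under 0.05, beside 18.7%. It was -0.95 ± 0.35 for NR3C1 (p = 0.0105, adjusted p = 0.132, limma), -0.76 ± 0.37 for TSC22D3 (adjusted p = 0.255), -0.74 ± 0.44 for FKBP5 (adjusted p = 0.37) and -1.14 ± 0.89 for PDK4 (adjusted p = 0.523). So the larger depot differences of Resv animals were not shown to differ from those of HFS animals. Without the first visceral Resv array, 2 members passed: NR3C1 at -1.19 (adjusted p = 0.0309) and TSC22D3 at -1.09 (adjusted p = 0.0413). Over 25 alternatives with the same probe the adjusted p ran from 0.0309 to 0.348 for NR3C1 and from 0.0413 to 0.562 for TSC22D3.

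**Figure D2:**
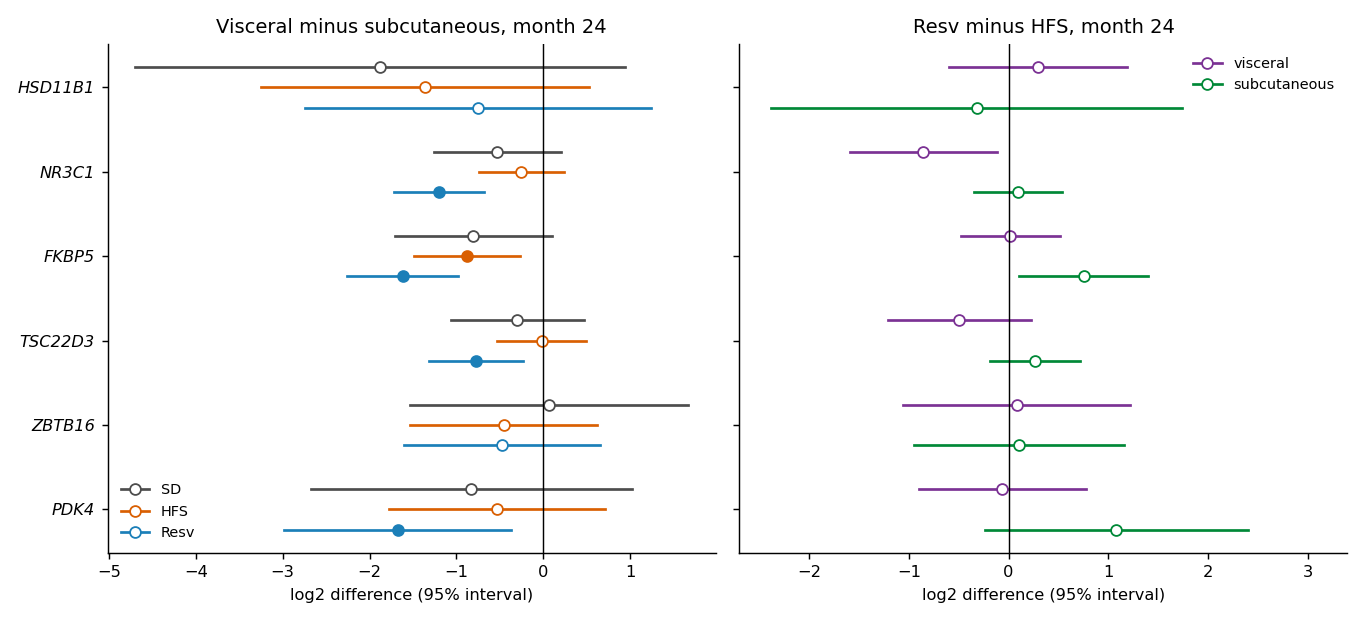
Log2 differences (horizontal axis) with 95% intervals for the 6 genes, between depots at month 24 by diet (left) and between Resv and HFS by depot (right); filled points passed an adjusted p under 0.05. The 5 filled points are FKBP5 in HFS and FKBP5, NR3C1, TSC22D3 and PDK4 in Resv, all below 0 on the left, and none is filled on the right.

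In 4 animals both depots were measured at month 24, so the difference could be read within the animal. FKBP5 was lower in visceral fat in 4 of 4, with log2 differences of -1.42 in the SD animal, -1.0 and -0.67 in the HFS animals and -1.99 in the Resv animal. NR3C1 was lower in 4 of 4 (mean -0.89 ± 0.60, SD) and HSD11B1 in 4 of 4 (mean -1.39 ± 1.46, SD). TSC22D3, ZBTB16 and PDK4 were lower in 3 of 4. Of all 12917 genes 17.5% were lower in visceral fat in all 4 animals. The HSD11B1 differences were unequal: 9.38 against 5.87 in the SD animal, 8.06 against 7.16 and 6.92 against 5.93 in the HFS animals, and 6.98 against 6.82 in the Resv animal. The animal with the highest subcutaneous HSD11B1 thus had the lowest visceral level of the 4. No test was run on 4 animals.

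**Figure D3:**
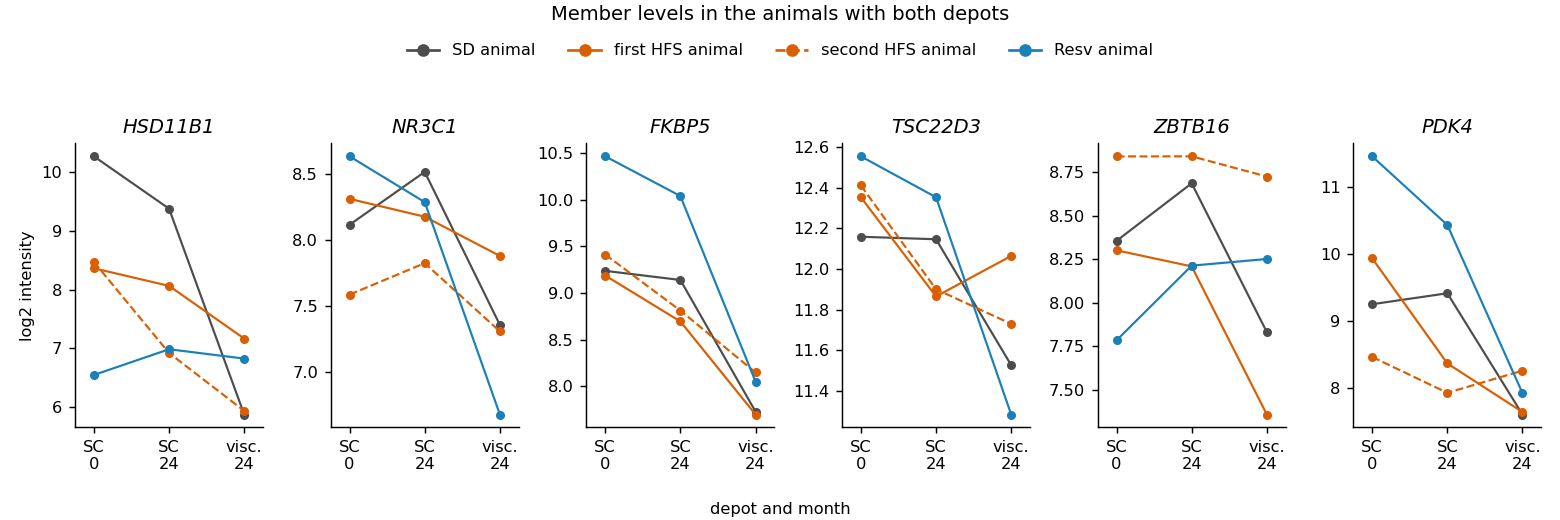
Log2 intensity (vertical axis, its range set for each gene) of the 4 animals with both depots, for subcutaneous fat at months 0 and 24 and visceral fat at month 24 (horizontal axis); each line is 1 animal. All 4 FKBP5, NR3C1 and HSD11B1 lines fall from subcutaneous to visceral fat at month 24.

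Mesothelial markers, and some markers of other cell types, differed between depots. The mesothelium, the cell sheet over visceral fat, gave 4 to 8 of 9 measured markers detected per visceral array and 0 to 3 per subcutaneous array of month 24. The log2 of their summed signal was 9.11 to 12.90 in visceral fat and 7.83 to 8.25 in subcutaneous fat of month 24. Of 6 stromal progenitor markers, 4 were lower and 0 higher in visceral Resv fat, and 3 lower and 0 higher in HFS. The log2 of their summed signal was 14.43 to 14.86 against 14.91 to 15.68 in Resv, and 14.78 to 15.13 against 14.75 to 15.13 in HFS. Of 8 adipocyte markers LIPE and PNPLA2, the fat cell's lipases, were higher and LEP, the leptin gene, was lower in visceral Resv fat. In HFS LEP was lower. ADIPOQ passed higher there (adjusted p = 0.0188, limma), but was above background on 2 of 4 visceral and 0 subcutaneous arrays (means 5.07 and 4.70). It entered the fit through the visceral groups alone, so it was bound to read higher in them. With the same floor as for TSC22D3 it was at least 1.07-fold higher. The log2 summed adipocyte signals were 14.49 to 14.89 against 14.42 to 15.04 in Resv and 14.58 to 14.86 against 14.95 to 15.21 in HFS. In Resv 2 of 5 endothelial and 2 of 7 smooth muscle and pericyte markers were higher, and of 9 immediate early and heat shock genes 1 was higher and 2 were lower. In HFS none of these 3 lists had a gene passing, nor did the macrophage and erythroid lists in either diet. Across all genes 35.8% passed in Resv (15.8% lower) and 18.7% in HFS (7.52% lower). The Resv counts of the adipocyte, endothelial, smooth muscle and pericyte, and immediate early lists thus lay near the share of all genes. The part of these cells in the depot differences was not tested. With the number of detected probes in the fit, FKBP5 in Resv was at -1.54 and NR3C1 at -1.41, and both passed. In the same fit TSC22D3 (-0.62, adjusted p = 0.111, limma) and PDK4 (-1.77, adjusted p = 0.0618) in Resv and FKBP5 in HFS (-0.84, adjusted p = 0.061) did not pass.

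Within the pathway, the depot differences did not run one way. Of 14 genes that handle cortisol or partner the receptor, 11 were tested. In HFS 3 were higher and 2 lower in visceral fat, with a median of 0.15 beside 0.05 for all genes, and in Resv 2 were higher and 2 lower, with a median of -0.20 beside 0.06. Across all genes 18.7% passed in HFS and 35.8% in Resv, so the Resv count lay near the share of all genes. H6PD, which feeds HSD11B1 with its cofactor, was higher in visceral fat in both, at 1.71 ± 0.32 in HFS (adjusted p = 0.000174) and 1.49 ± 0.34 in Resv (adjusted p = 0.00066, limma). HSP90AB1, a receptor chaperone, was also higher, at 1.2 ± 0.16 in HFS (adjusted p = 4.68e-07) and 0.58 ± 0.16 in Resv (adjusted p = 0.00515). PTGES3, the co-chaperone p23 that steadies the hormone-binding receptor, was lower, at -1.58 ± 0.37 in HFS (adjusted p = 0.00206) and -3.50 ± 0.39 in Resv (adjusted p = 7.52e-09). HSP90AA1, the inducible HSP90, was lower in Resv at -2.76 ± 0.39 (adjusted p = 6.18e-07). ABCB1, an efflux pump that can carry cortisol, was higher in HFS at 0.78 ± 0.27 (adjusted p = 0.0367). NCOA2, a receptor coactivator, passed lower in HFS at an adjusted p of 0.0104 but was not above background on any visceral HFS array and on 1 of 5 subcutaneous ones, so it has no measured fold.

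Among 32 other genes known as glucocorticoid-induced, 29 were tested between depots. In visceral HFS fat 1 was higher and 2 lower (median 0.10 beside 0.05 for all genes), and in Resv 3 were higher and 5 lower (median -0.05 beside 0.06). Neither count was above the share of all genes passing, 18.7% in HFS and 35.8% in Resv. The higher ones in Resv were CEBPB, an adipogenic transcription factor (2.29 ± 0.36, adjusted p = 3.53e-06, limma), KLF15, a metabolic transcription factor (1.33 ± 0.52, adjusted p = 0.0406), and ANGPTL4, an inhibitor of lipoprotein lipase (0.70 ± 0.26, adjusted p = 0.0339). The lower ones were RGS2, a brake on G protein signals (-2.81 ± 0.53, adjusted p = 6.73e-05), ERRFI1, a brake on EGF receptor signals (-2.49 ± 0.44, adjusted p = 2.59e-05), BCL6, a transcriptional repressor (-1.38 ± 0.42, adjusted p = 0.00924), KLF9, a transcription factor (-1.0 ± 0.25, adjusted p = 0.00188), and DUSP1. DUSP1, which switches MAP kinases off, was not above background on any visceral array. With the same floor, it was at least 4.30-fold lower there than in subcutaneous Resv fat (measured means 4.5 and 7.07, adjusted p = 1.2e-09). DUSP1 entered the fit through subcutaneous groups alone, so it was bound to read lower in visceral fat and its call carries no weight in the count. In HFS, ANGPTL4 was higher (0.80 ± 0.25, adjusted p = 0.0199), and RGS2 (-2.09 ± 0.50, adjusted p = 0.00259) and FOXO3, a transcription factor (-0.62 ± 0.22, adjusted p = 0.0468), were lower. The induced genes thus did not move as 1 group with FKBP5 and PDK4.

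Of 15 genes of the PDK4 enzyme system and its fatty-acid-responsive companions, 11 were tested between depots, with 1 higher in HFS and 1 higher and 2 lower in Resv. PPARD, a fatty acid receptor, was higher in both, at 0.95 ± 0.22 (adjusted p = 0.00203, limma) and 0.70 ± 0.23 (adjusted p = 0.0175). In Resv the lower ones were PDHA1, the subunit of pyruvate dehydrogenase that PDK4 phosphorylates, at -1.62 ± 0.34 (adjusted p = 0.000233), and the sister kinase PDK1 at -0.69 ± 0.25 (adjusted p = 0.0296). The list medians were 0.17 in HFS and 0.05 in Resv, beside 0.05 and 0.06 for all genes. Neither count of passing genes was above the share of all genes, 18.7% in HFS and 35.8% in Resv.

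No member passed in any comparison of diets or times. The 3 diets in visceral fat, the 3 diets in subcutaneous fat at months 0 and 24, the change over time in each diet and the differences of these changes gave 14 comparisons and 84 values of members. Of these 0 passed in limma's test, 2 had an unadjusted p under 0.05, and the smallest adjusted p was 0.163. These 2 were NR3C1 for visceral Resv against HFS, where 23.7% of all genes had such a p, and FKBP5 for subcutaneous Resv against HFS, where 13.3% did. Across all genes 0.00858% passed for HFS against SD in visceral fat, 0% for Resv against HFS and 0.00858% for Resv against SD. In subcutaneous fat at month 24 the shares were 0%, 2.23% and 0.791%. For the change over 24 months they were 0% in SD, 1.01% in HFS and 11.4% in Resv, and 0% and 0.841% for the differences of these changes, HFS minus SD and Resv minus HFS. At month 0 they were 0.00824%, 0% and 0.00824%. The shares for the change over time moved widely. In Resv the share was 5.25% with the array set as a block, 1.91% in set A, 1.06% with the number of detected probes in the fit and 4.68% without the fourth month 24 array. In HFS it was 4.48%, 0.181%, 1.29% and, without the third month 24 array, 0.124%.

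Between HFS and SD the values of the members lay near 0 with wide intervals. In visceral fat the 6 differences of HFS from SD ran from -0.23 to 0.27, and in subcutaneous fat at month 24 from -0.30 to 0.29. The 2 SD arrays a depot leave wide intervals, such as -2.82 to 2.31 for subcutaneous HSD11B1, so these values do not show that the diets act alike. PDK4, which fatty acids can induce, was at -0.01 ± 0.47 in visceral and -0.30 ± 0.81 in subcutaneous fat.

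FKBP5 in subcutaneous fat at month 24 had a Resv minus HFS difference of 0.76 ± 0.32, or 1.69-fold, with an unadjusted p of 0.0237 and an adjusted p of 0.267 in limma's test, so it did not pass. Of 20 alternatives it passed in 1, median scaling, at 1.35 (adjusted p = 0.0442, limma), where the median of all genes was 0.37. With the number of detected probes in the fit it was at 0.57 (adjusted p = 0.744, limma). Its values of 9.64 ± 0.36 (SD, n = 4) and 8.89 ± 0.15 (n = 5) did not overlap, as was so for 8.56% of all genes. In 3 of the 4 Resv animals the level had been higher than in all 5 HFS animals already at month 0. It was 10.26, 10.47 and 9.78 then and 9.43, 10.04 and 9.84 at month 24, while the fourth animal went from 8.96 to 9.26. The same 5 HFS animals had 8.63 to 9.41 at month 0. Against all 10 Resv animals of month 0 the change was 0.44 ± 0.28 (adjusted p = 0.323, limma), while it was -0.22 with the animal as a block and -0.53 in array set A alone. PDK4 was at 1.08 ± 0.65 (adjusted p = 0.514), and its 95% interval ran from -0.24 to 2.40.

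NR3C1 in visceral fat had a Resv minus HFS difference of -0.85 ± 0.33 (unadjusted p = 0.0266, adjusted p = 0.163, limma), and did not pass. The means were 6.93 ± 0.66 and 7.79 ± 0.35 (SD, n = 4 each), with 4 of 4 Resv arrays below the HFS mean and overlapping ranges. TSC22D3 was at -0.49 ± 0.33 (adjusted p = 0.357). The first visceral Resv array was the highest of the 4 for both genes, apart from the others for TSC22D3 (12.42 against 11.32 for the next) but not for NR3C1 (7.65 against 7.26), and it had 15153 detected probes where they had 15901 to 16839. Without it, both passed: NR3C1 at -1.09 (adjusted p = 0.0463) and TSC22D3 at -0.83 (adjusted p = 0.0449). With the number of detected probes in the fit they were at -0.49 (adjusted p = 0.83) and 0.05 (adjusted p = 0.982). The second NR3C1 probe, above background on 3 of 4 Resv and 1 of 4 HFS arrays, was at 0.29 ± 0.24 and did not pass. ILMN_1781356, a second probe of TSC22D3, was above background on 3 of 4 Resv and 0 of 4 HFS arrays and did not pass (adjusted p = 0.138, limma). Against the same floor as above, its mean in these arrays was at least 1.29-fold higher in Resv, the other direction from the main probe. As it did not pass, this is no established least difference.

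Of genes around the members, the receptor chaperones PTGES3 and HSP90AA1 were higher in subcutaneous Resv fat at month 24. Across all genes 2.23% passed for subcutaneous Resv against HFS. Of the 11 tested genes of cortisol handling and receptor partners, 2 were higher than in HFS and 0 lower (median 0.25 beside -0.04 for all genes). These were PTGES3 at 1.66 ± 0.40 (adjusted p = 0.0163, limma) and HSP90AA1 at 1.43 ± 0.39 (adjusted p = 0.0385). PTGES3 averaged 9.71 ± 0.50 in Resv and 8.05 ± 0.37 in HFS, and HSP90AA1 8.53 ± 0.34 and 7.09 ± 0.40 (SD, n = 4 and 5). Of 28 other induced genes DUSP1 alone passed, higher at 2.11 ± 0.27 (adjusted p = 6.49e-06, detected on 4 of 4 Resv and 2 of 5 HFS arrays). Of the 10 tested genes of the PDK4 list 0 passed, and 1 had an unadjusted p under 0.05, beside 13.3% of all genes. In visceral fat 0 of 10, 28 and 11 genes of the 3 lists passed in limma's test, with 3, 4 and 1 at an unadjusted p under 0.05. Of all genes 0% passed there and 23.7% had such an unadjusted p. The effect of resveratrol on HSP90AA1 and PTGES3 differed between depots, at -1.94 ± 0.54 (adjusted p = 0.0376) and -1.92 ± 0.54 (adjusted p = 0.0427, visceral minus subcutaneous, limma). The immediate early and heat shock list, of genes that answer quickly to stress, had 0 of 9 tested genes passing in subcutaneous fat and 0 at an unadjusted p under 0.05, with a median of 0.45, and summed signals of 12.15 to 14.20 in Resv and 11.52 to 13.08 in HFS. Stromal progenitor markers had 0 of 6 passing and 5 of 6 above 0 (median 0.60). The part of these genes and cells in the differences was not tested.

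Over 24 months the differences of the members ran from -0.63 to 0.71 in SD, -0.35 to 0.80 in HFS and -0.38 to 0.44 in Resv, and none passed. Their smallest adjusted p was 0.859, 0.7 and 0.323. In Resv all 4 month 24 arrays were of set A and 7 of the 10 month 0 arrays were of set B. Time and array set are therefore partly mixed for the list genes named next, whose values in set A alone are not given. A smaller share of all genes passed in set A alone, as given above. Of 28 other induced genes in Resv, 4 were higher and 2 lower, beside 11.4% of all genes passing. DUSP1 passed higher at 2.18 ± 0.24 (adjusted p = 1.16e-07, limma), with 4 of 4 arrays above background at month 24 and 4 of 10 at month 0 (means 7.07 and 4.89), so that the month 0 level was mostly not above background. CD163, a scavenger receptor of macrophages, was higher by 1.98 ± 0.47 (adjusted p = 0.00526), ERRFI1 by 1.60 ± 0.39 (adjusted p = 0.00613) and GADD45B, a stress-response gene, by 0.90 ± 0.26 (adjusted p = 0.0207). IRS2, an insulin receptor substrate, was at -1.47 ± 0.42 (adjusted p = 0.0195) and CEBPB at -1.13 ± 0.30 (adjusted p = 0.0134). In the same comparison 2 of 5 tested macrophage markers were higher and 0 lower, with 5 of 5 detected on each month 24 array and a median difference of 1.38 beside -0.05 for all genes. CD163 stands in both lists and is among these 2 markers. The part of macrophages in these changes was not tested. Of the 11 genes of cortisol handling and receptor partners 3 were higher and 0 lower, HSP90AA1 at 1.91 ± 0.34 (adjusted p = 0.000248, limma), PTGES3 at 1.78 ± 0.35 (adjusted p = 0.000882) and NCOA2 (adjusted p = 0.00719). NCOA2 was above background on 2 of 4 arrays at month 24 and 0 of 10 at month 0, and has no measured fold. It entered the fit through the month 24 Resv group alone, so it had to differ and its call carries no weight in the count.

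In 11 animals subcutaneous fat was measured at both times, which shows how far a level belonged to the animal. FKBP5 had Pearson r = 0.75 and Spearman rho = 0.62 over the 11 animals, the highest of the 6 genes there (permutation p = 0.01 and 0.0482, adjusted over the 6 genes 0.06 and 0.289), so it did not pass after adjustment. That order did not hold throughout. Without the 2 animals farthest from the median its r was 0.52, below 0.63 for HSD11B1, and over the 8 animals with both arrays in set A its r was 0.78 and its rho 0.79, below a rho of 0.86 for PDK4. The others had r = 0.49 for HSD11B1, 0.41 for ZBTB16, 0.27 for PDK4, 0.16 for NR3C1 and -0.21 for TSC22D3, with rho of 0.44, 0.44, 0.34, 0.19 and -0.15. Their adjusted permutation p ran from 0.372 to 0.626 for r and from 0.364 to 0.651 for rho. In set A alone r was 0.67 for HSD11B1, 0.49 for ZBTB16, 0.77 for PDK4, 0.48 for NR3C1 and -0.03 for TSC22D3. The median r of all 12130 genes was 0.21, and 0.29 in set A. For PDK4, 2 animals whose month 0 array was in set B went from 7.32 to 8.99 and from 6.61 to 9.63, while 7 of the 8 animals of set A were lower at month 24. TSC22D3 was also lower at month 24 in 7 of the 8. For HSD11B1 the animal with the largest change went from 5.09 to 8.47.

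**Figure D4:**
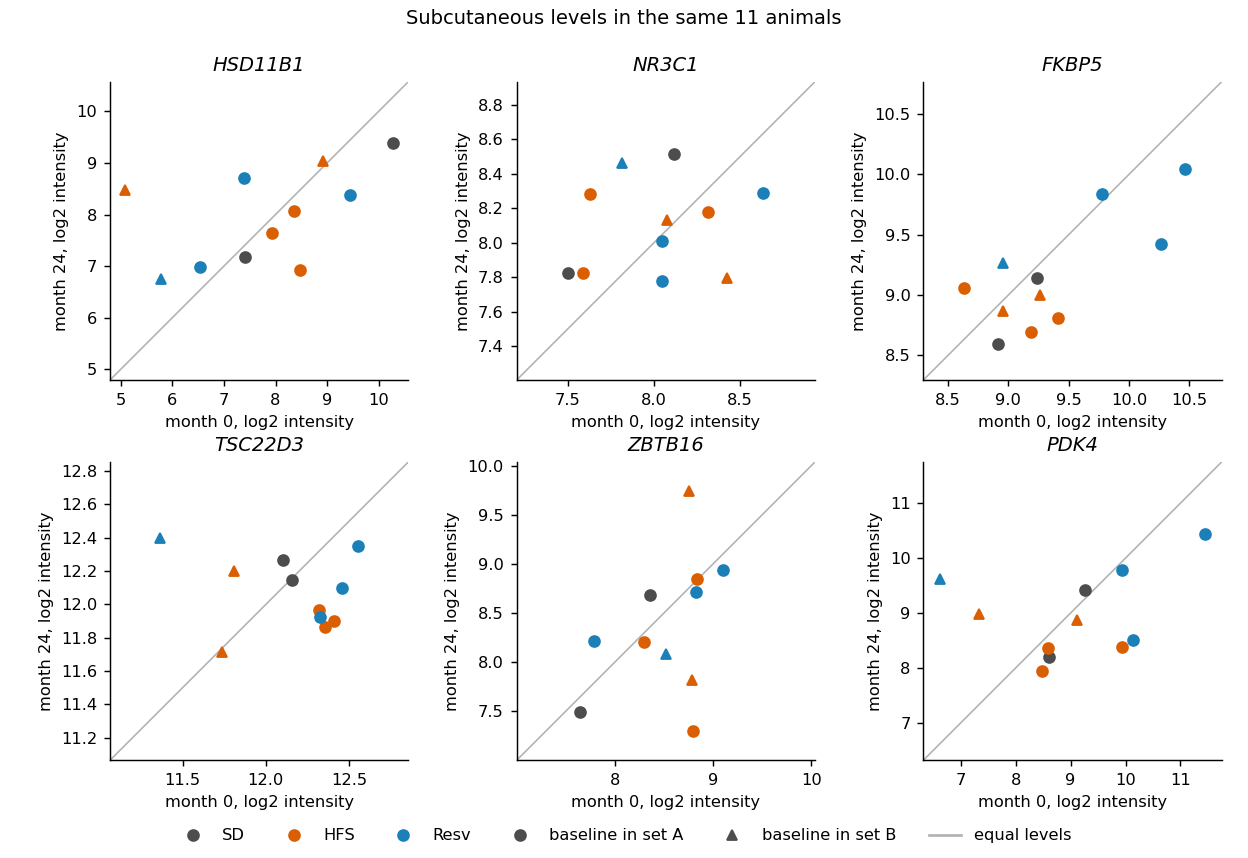
Subcutaneous log2 intensity at month 24 (vertical axis) against month 0 (horizontal axis) for the same 11 animals, 1 panel a gene; colour gives the diet, circles and triangles the array set of the month 0 array, and the line equal levels. The 3 Resv animals highest in FKBP5 at month 0, from 9.78 to 10.47, are the 3 highest at month 24.

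Before any diet some pairs of members were related across the 24 animals. After subtracting the mean of each array set, 7 of the 15 pairs passed on Pearson r (permutation test, 100000 resamples, two-sided, Benjamini-Hochberg over 15 pairs). The share of all gene pairs that would pass in this way was not counted. Between 1.06% (FKBP5) and 7.44% (PDK4) of all genes had r over 0.5 with a member. NR3C1 and PDK4 had the closest relation, with r = 0.75 and rho = 0.70 (adjusted p = 6e-04 and 0.0024), and it was 0.93 in set A (n = 8) and 0.69 in set B (n = 16). TSC22D3 went with PDK4 (r = 0.63, rho = 0.55, adjusted permutation p = 0.00893 and 0.0165), and this was 0.63 in set A and 0.66 in set B. TSC22D3 also went with ZBTB16 (r = 0.59, rho = 0.59, adjusted permutation p = 0.0147 and 0.0165) and with FKBP5 (r = 0.47, rho = 0.57, adjusted permutation p = 0.0435 and 0.0165). In sets A and B these were 0.27 and 0.63 with ZBTB16, and 0.73 and 0.51 with FKBP5. FKBP5 and ZBTB16 had r = 0.47 and rho = 0.44 (adjusted permutation p = 0.0435 and 0.078), which was 0.07 in set A and 0.75 in set B. So the targets of the receptor were in part high and low together, but FKBP5 with PDK4 (r = 0.38, adjusted permutation p = 0.109) and ZBTB16 with PDK4 (r = 0.16, adjusted permutation p = 0.49) did not pass.

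HSD11B1, the activating enzyme, was low where PDK4 and TSC22D3 were high. It had r = -0.48 and rho = -0.57 with PDK4 (adjusted permutation p = 0.0435 and 0.0165) and r = -0.47 and rho = -0.40 with TSC22D3 (adjusted permutation p = 0.0435 and 0.102). In sets A and B these were -0.30 and -0.54 with PDK4, and -0.51 and -0.47 with TSC22D3. With NR3C1 it was at -0.38 (adjusted permutation p = 0.109), with FKBP5 at -0.16 and with ZBTB16 at 0.01. Without the 2 animals farthest from the median of the first gene the values that passed were 0.70 for NR3C1 with PDK4, 0.58 for TSC22D3 with PDK4, 0.38 with ZBTB16, 0.50 for FKBP5 with TSC22D3, 0.74 with ZBTB16, -0.52 for HSD11B1 with PDK4 and -0.40 with TSC22D3. With the array set means left in, HSD11B1 and TSC22D3 came to -0.16, FKBP5 and ZBTB16 to 0.23, HSD11B1 and PDK4 to -0.34 and TSC22D3 and ZBTB16 to 0.30, which was 0.34 with the deposited scores.

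**Figure D5:**
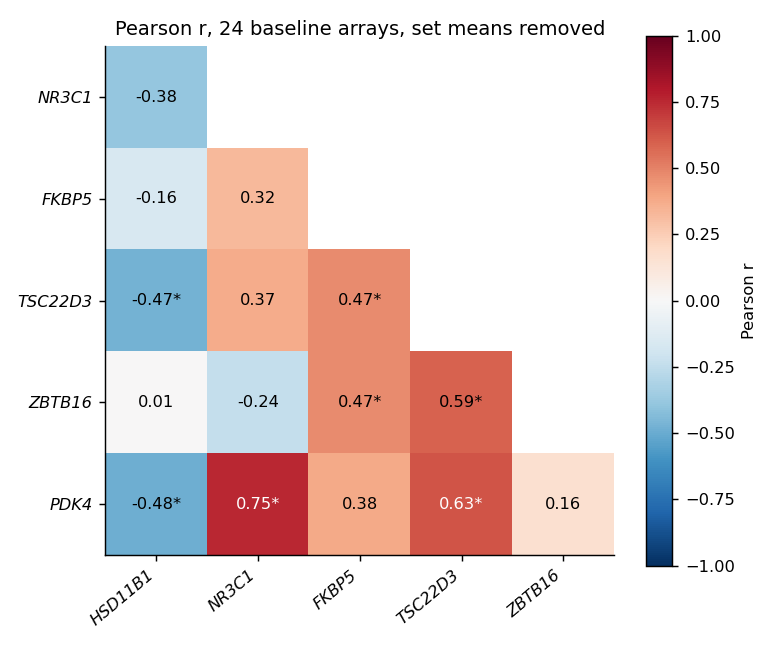
Pearson r between pairs of the 6 genes over the 24 month 0 subcutaneous arrays after subtracting array set means, as colour and number; an asterisk marks an adjusted permutation p under 0.05. NR3C1 and PDK4 have the highest value at 0.75 and HSD11B1 and PDK4 the lowest at -0.48.

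The members' levels at month 0 were also set beside the mean level of the 8 marker lists and the number of detected probes, 54 relations in all, and 0 passed after adjustment. The relation nearest to passing was that of HSD11B1 with stromal progenitor markers, at r = -0.59 and rho = -0.61 (permutation p = 0.00274 and 0.00181, adjusted 0.118 and 0.0977), with -0.41 in set A and -0.62 in set B. With adipocyte markers HSD11B1 was at r = 0.17, and with the number of detected probes at 0.09. TSC22D3 had r = 0.56 with the immediate early and heat shock list. The genes with the highest r with each member over the same 24 arrays are given as a description. For HSD11B1 these were GTF2E1 (0.90), a general transcription factor, PTGR1 (0.89), a reductase of prostaglandin breakdown, and UCHL3 (0.89), a deubiquitinase. For NR3C1 they were CDS2 (0.81), GTF3C3 (0.80) and SYTL4 (0.80), and for PDK4 ZFYVE26 (0.88), SP4 (0.86) and OSBP (0.84). For FKBP5 they were RAB18 (0.69), QDPR (0.66) and CISH (0.64). For TSC22D3 they were PABPC4 (0.80), ZFAND5 (0.79) and SIK1 (0.78). For ZBTB16 they were FOXO3 (0.74), TNS2 (0.74) and DVL2 (0.71), and of these FOXO3 is in the list of other induced genes.

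How many genes of that list were close to a member differed between members. Of its 28 genes measured in subcutaneous fat, 9 had r over 0.5 with TSC22D3, where 5.74% of all genes did. The numbers were 5 with ZBTB16 (2.43% of all genes), 4 with FKBP5 (1.06%), 4 with PDK4 (7.44%), 4 with HSD11B1 (6.43%) and 1 with NR3C1 (5.65%). The median r over the list was between -0.05 and 0.23. Levels on the same arrays share normalization and RNA quality.

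The other probes of a member did not always follow the one that stands for it, which is the brightest kept. The 2 other HSD11B1 probes had r = 0.94 and 0.97 with it over the 45 arrays, so all 3 probes of that gene saw its wide spread. In visceral fat alone they differed: Resv minus HFS was 0.29 ± 0.40, 1.04 ± 0.47 and -0.45 ± 0.41 over the 3 probes, none passing. The other ZBTB16 probes were at 0.91 and 0.59, the second NR3C1 probe at 0.42, and those of TSC22D3 at 0.66, 0.24 and -0.17. ILMN_1812384 of NR3C1 and ILMN_1695382 of TSC22D3 were not above background on any of the 45 arrays. The TSC22D3 probe ILMN_2276952 was above background on 3 of 45 arrays, all of them subcutaneous Resv at month 24, where it read 4.84, 4.97, 5.04 and 5.37 beside a mean of 4.47 ± 0.09 (SD, n = 5) in HFS. It entered the fit through that group alone, so it had to differ, and as none of the HFS arrays measured it the difference is at least 1.06-fold. The other probe annotated to the same TSC22D3 transcript was at 0.06 ± 0.24 in that comparison.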

How the data were processed

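RNA of rhesus fat was read on human HT-12 V4 bead arrays. The authors deposited an intensity per probe and array, exported with GenomeStudio 1.9.0 per the submitters' processing notes, with a detection p-value beside it per the file headers. A second deposited table holds a score, the z-transformed log intensity. The labels and headers do not say how p-value and score were computed. Of 47323 probes 92 were empty, and 30113 of the rest had 1 symbol, 8 several and 17110 none.

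Intensities were background corrected and quantile normalized over 45 arrays with neqc of limma 3.58.1 (R 4.3.3, offset 16, log2). Probes detected (p under 0.05) on at least as many arrays of a group as not were kept, and the brightest kept probe stood for a gene. The 3 fits had 1 mean per group and were tested with lmFit and eBayes with a trend: 10 visceral arrays (11657 genes, 7 residual degrees of freedom), 35 subcutaneous arrays (12130, 29) and all 45 (12917, 36), for 18 comparisons. The p-values are two-sided and Benjamini-Hochberg adjusted over genes. The arrays of a group are of different animals by the column headers.

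The members, the 3 pathway lists and the 8 marker lists were chosen with earlier results of these data known. Named list genes are those that passed, and the 3 genes most like a member those with the highest r. Alternatives were no background correction, median scaling, the deposited scores, no filter, an adjusted p under 0.1, other probes, fewer arrays in the fit, the number of detected probes, replicate and animal blocks, array set, depots normalized separately and each array left out. Separate normalization, the same-animal comparisons and the relations with markers were added after seeing the data. Same-numbered arrays over time come from 1 animal in 9 of 11 pairs by the animal names in the column headers, with residual correlations of -0.33 to 0.48, 8 of them over 0.1. Of 22 pairs across diets or depots 3 share an animal. The 25 names stand for 24 animals. The fits were tested on simulated data. No sequence is printed, since none was given for these probes.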

Additional observations from a re-analysis of the deposited data

Results flagged for a closer look

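In 2 of 42 groups of 4 to 10 arrays 1 level of a member stood far from the others, where chance gives about 1 in 20. Both concern ZBTB16 at month 0. One HFS animal read 6.98, below the next at 8.30 in a group that reached 9.68. One Resv animal read 11.03, above the next at 9.10 in a group that began at 7.78. Both arrays are of set B.

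The subcutaneous FKBP5 level of all 4 Resv animals at month 24 lay above the mean of the month 0 Resv animals, at a difference of 0.44, while both SD animals lay below theirs, at -0.36. The difference between these changes was not tested. The month 0 mean was over 10 animals, and in 2 of the 4 Resv animals themselves FKBP5 was lower at month 24 than at month 0. The Resv difference turned to -0.22 with the animal as a block, -0.19 with the replicate block and -0.53 in array set A.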

How the results depend on the processing

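FKBP5 and NR3C1 between the depots of Resv animals kept their direction and call under 16 alternatives each with the same probe. On the log2 scale these ran from -1.74 to -1.40 and from -1.44 to -0.86, and the deposited scores gave -0.98 and -0.69. Here and below, differences with the deposited scores are in units of the score, not log2. NR3C1 lost the call with ILMN_1668525 (-0.32). FKBP5 in HFS lost it with median scaling (-0.50), the deposited scores (-0.49) and the number of detected probes in the fit (-0.84), and ran from -0.95 to -0.78 as each array was left out. PDK4 in Resv lost it with median scaling (-1.68), scores (-0.99), no filter (-1.68) and detected probes (-1.77), and ran from -2.04 to -1.39. TSC22D3 in Resv lost it with median scaling (-0.75), scores (-0.43), only the arrays compared (-0.78), detected probes (-0.62) and ILMN_2376403 (-0.30), turned with ILMN_1781356 (0.16), and ran from -1.11 to -0.52.

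The number of members passing between depots was 0 in HFS with median scaling, scores and detected probes, 2 with only the arrays compared, and 0 to 1 as each array was left out. In Resv it was 2 with median scaling, scores and detected probes, and 2 to 4 as each array was left out. It was 1 for subcutaneous Resv against HFS with median scaling, where FKBP5 passed at 1.35 (adjusted p = 0.0442, limma) and the median of all genes was 0.37. It was 0 to 2 as each array was left out for visceral Resv against HFS and for the effect of resveratrol on the depot difference, both 2 without the first visceral Resv array.

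Values that did not pass and turned in sign were these. FKBP5 over time in Resv came to -0.19 with the replicate block, -0.22 with the animal block and -0.53 in set A, and its change in Resv minus HFS to -0.038, -0.022 and -0.34. TSC22D3 over time in Resv came to -0.025 (scores), -0.23 (detected probes), -0.079 (replicate block), -0.10 (array set block) and -0.25 (set A), and its change in Resv minus HFS to -0.052 (scores) and -0.094 (detected probes). For subcutaneous Resv against HFS TSC22D3 came to -0.064 (scores), -0.093 (detected probes) and -0.18 (ILMN_1781356). In visceral fat TSC22D3 came to 0.049 (detected probes) and 0.61 (ILMN_1781356) against HFS and 0.54 (ILMN_1781356) against SD. With ILMN_1668525 NR3C1 came to 0.29 and 0.048 there. For the depot difference, Resv minus HFS, NR3C1 came to 0.62 (ILMN_1668525) and TSC22D3 to 0.79 (ILMN_1781356). NR3C1 between HFS depots came to 0.088 with median scaling, and HSD11B1 in visceral Resv against SD to -0.11 with ILMN_2389501. TSC22D3 in subcutaneous Resv against SD turned and passed with ILMN_2276952 (0.38, adjusted p = 0.0449, limma). But that probe entered the fit through the month 24 Resv group alone, so it had to differ and its call carries no weight. As 0 of 2 SD arrays measured the probe, the difference is at least 1.09-fold. The cause was not tested for any of these.

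Median scaling moved the median of all genes by over 0.1 in 13 of 18 comparisons, at most by 0.57. The replicate block changed the call of 0 of 108 member results. Replicate numbers stand for the same animal in 9 of 11 pairs over time but in 3 of 22 across diets or depots, so this is not a block on the animal. The main fits had no term for the animal, though 11 animals were measured at both times and 4 in both depots. Few arrays, 2 a depot in SD, and probes made for human transcripts limit the precision.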
